A study of Mus musculus with 8 samples.

Results

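The MHC class II presentation genes were described in sorted pre-B cells and in LSK hematopoietic progenitors of Dido1∆E16 and WT mice. The set was a list of 10 named genes, taken from 26086 gene symbols among the transcripts measured. All 10 had a mean of at least 1 TPM, the unit of transcript abundance after scaling for length and library, over the pre-B libraries and were tested. They comprise the class II chains (H2-Aa, H2-Ab1, H2-Eb1), the peptide-loading genes (H2-DMa, H2-DMb1, H2-DMb2), the loading inhibitors (H2-Oa, H2-Ob), the invariant chain (Cd74) and the transactivator (Ciita).

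MHC class II molecules present peptides from endosomes to CD4 T cells. An α and a β chain assemble in the endoplasmic reticulum with the invariant chain, which blocks the groove and guides the complex to endosomes. There H2-DM exchanges the remnant of the invariant chain for peptides, and H2-O restrains H2-DM. Ciita is the master coactivator of these genes. It binds no DNA itself and is recruited by RFX, NF-Y and CREB proteins bound to conserved X and Y boxes in the promoters. In the B lineage, surface class II is low on early precursors and increases as the cells mature.

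RNA-seq was available for 2 WT and 2 Dido1∆E16 pre-B libraries, and Omni-ATAC-seq, which reads accessible DNA through transposase insertion, for 2 WT and 2 Dido1∆E16 LSK libraries. All mice were C57BL/6, and experimental and control animals were littermates. The study's methods call them matched for sex and age, and a figure legend describes the RNA-seq and ATAC-seq mice as males that differed in age. Dido1∆E16 denotes Dido1 flE16/∆E16;R26R-EYFP;iCre Vav1, with 1 deleted allele and 1 floxed allele from which Cre, driven by Vav1 in blood cells, removes exon 16. WT denotes Dido1 flE16/+;R26R-EYFP;iCre Vav1, so the controls carried the Cre, the reporter and 1 floxed allele as well, and they are not free of recombination. Pre-B cells were sorted from bone marrow by surface markers, and each RNA pool combined several mice. LSK cells are lineage-negative, Sca1 and cKit positive progenitors. The study's methods describe the libraries of a genotype as biological replicates. The limma p-values rest on the spread between 2 of these per genotype, combined with the spread of other genes at similar levels.

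The targeted exon checked the labels. Coverage of exon 16 of Dido1, scaled to TPM, stood at 24.6 and 21.8 for WT, against 0.295 and 0.0843 for Dido1∆E16. The files give no read counts, so depth is known only through coverage, and 1121 to 1635 megabases lay on transcripts per library. In LSK cells, 4 of 8 progenitor markers (Kit, Meis1, Cd34, Flt3) had a promoter peak in all 4 libraries. Ly6a, which encodes Sca1, had none.

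Promoter entries of RefSeq (GRCm38.p6) matched 7 of the 10 genes, namely the H2 genes other than H2-Ab1. The windows of 6 are shown from 150 to 16 bases before the annotated start, in the direction of transcription, because the X and Y boxes through which Ciita acts lie there. Capitals mark the letters GATTGG of the Y box, and the letters AACNNNTG of the X box where they precede a Y box by 10 to 40 bases. The X letters were chosen after the windows had been read. H2-DMa, which has 2 entries, is not shown. GATTGG was absent from both of its windows. Its second entry held GATTGG outside the window, since entries span 250 bases before to 50 after the start. Neither entry held a pair.
H2-Aa, chr17:34287839-34287973, minus strand: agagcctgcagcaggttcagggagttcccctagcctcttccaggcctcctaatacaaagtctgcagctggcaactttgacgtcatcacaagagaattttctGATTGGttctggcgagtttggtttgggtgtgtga
H2-Eb1, chr17:34305717-34305851, plus strand: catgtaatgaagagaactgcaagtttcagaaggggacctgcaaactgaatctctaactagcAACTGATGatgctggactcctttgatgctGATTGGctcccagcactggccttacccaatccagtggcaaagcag
H2-DMb1, chr17:34153041-34153175, plus strand: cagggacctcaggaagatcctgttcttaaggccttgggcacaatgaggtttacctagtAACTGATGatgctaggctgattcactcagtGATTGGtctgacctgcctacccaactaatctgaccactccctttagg
H2-DMb2, chr17:34145099-34145233, plus strand: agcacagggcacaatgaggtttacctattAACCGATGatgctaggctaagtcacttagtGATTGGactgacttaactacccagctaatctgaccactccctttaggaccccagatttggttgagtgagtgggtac
H2-Oa, chr17:34092229-34092363, plus strand: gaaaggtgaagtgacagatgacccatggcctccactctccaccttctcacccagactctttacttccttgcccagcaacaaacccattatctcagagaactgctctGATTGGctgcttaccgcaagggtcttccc
H2-Ob, chr17:34238755-34238889, plus strand: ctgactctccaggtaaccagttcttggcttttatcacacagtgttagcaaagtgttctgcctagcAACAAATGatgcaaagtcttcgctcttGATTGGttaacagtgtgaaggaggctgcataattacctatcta
On the strand of the gene, an AACNNNTG followed by GATTGG was found in H2-Eb1, H2-DMb1, H2-DMb2 and H2-Ob, at a spacing of 21, 22, 22 and 19 bases. Of all 32851 promoter entries, 92 (0.28%) held such a pair. GATTGG on either strand was found in all 7 genes with an entry, against 16.1% of all entries. The X letters on either strand were present in 35.6% of all entries. A match describes letters and is not a measured binding site.

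The 8 H2 genes lie together on chromosome 17, with H2-Oa at chr17:34092340-34095234 and H2-Eb1 at chr17:34305867-34316674 (mm10). Cd74 is at chr18:60803848-60812652 and Ciita at chr16:10480059-10528418. Of these, H2-Aa alone is on the minus strand.

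The levels of the 10 genes spanned a wide range in pre-B cells, as the plot of gene sums by library shows. A gene sum adds TPM over all transcripts that carry the gene's name, and is a level per length. Cd74 was the most abundant at 2676 ± 15.5 TPM in WT (SD, n = 2), followed by H2-Aa at 802 ± 103, H2-Ab1 at 631 ± 23.8, H2-Eb1 at 221 ± 9.64 and H2-Ob at 203 ± 3.46 TPM. Next came H2-DMb2 at 130 ± 7.16, H2-Oa at 116 ± 20.9, H2-DMa at 75.8 ± 0.0813 and H2-DMb1 at 60.7 ± 6.70 TPM. Ciita was lowest, at 19.1 ± 7.31 TPM. Between neighbours in this order, only the WT libraries of H2-DMb2 and H2-Oa overlapped. Over all 4 libraries, H2-Aa with H2-Ab1, H2-Eb1 with H2-Ob, H2-DMb2 with H2-Oa, H2-Oa with H2-DMa and H2-DMa with H2-DMb1 overlapped.

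**Figure D1:**
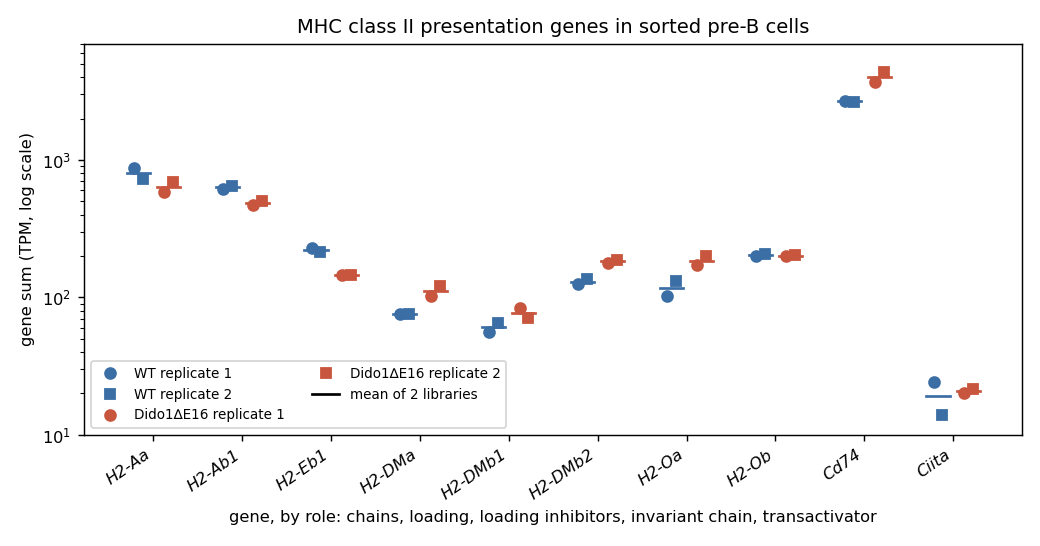
Gene sums in TPM (log scale) of the 10 genes in the 4 pre-B libraries; circles and squares are replicates 1 and 2, and bars the mean of 2 libraries. Both Dido1∆E16 libraries lie below both WT libraries for the 3 chains and above them for H2-DMa, H2-DMb1, H2-DMb2, H2-Oa and Cd74.

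The chain genes had less RNA in both Dido1∆E16 libraries than in either WT library, and no difference passed the test across all genes. H2-Eb1, the β chain of the I-E molecule, stood at 228 and 214 TPM in WT and at 145 and 146 TPM in Dido1∆E16. The Dido1∆E16 libraries lay close together and below WT, a difference of -0.60 ± 0.11 on the log2(TPM + 1) scale (SE; limma, adjusted p = 0.231). H2-Eb2, the neighbouring gene, was listed at 7.63 and 5.56 TPM in WT and 4.74 and 5.03 TPM in Dido1∆E16. The α chain of I-E, which C57BL/6 mice do not make, is represented by H2-Ea-ps, listed at 0 in 3 libraries and at 1.07 TPM in Dido1∆E16 replicate 1.

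H2-Aa, the α chain of the I-A molecule, stood at 875 and 729 TPM in WT and at 589 and 687 TPM in Dido1∆E16. The nearest libraries of the genotypes differed by less than the WT libraries did, and the difference was -0.33 ± 0.16 (limma, adjusted p = 0.554). H2-Ab1, the β chain of I-A, summed to 614 and 648 TPM in WT and 467 and 500 TPM in Dido1∆E16 (-0.38 ± 0.12; limma, adjusted p = 0.362). That sum depended on how WT replicate 2 was divided among transcripts. There a short transcript, uc008ccc.1, held 47.8% of the gene's TPM, and it was listed at 0 in the other libraries. With the coverage of all exonic bases in place of summed TPM, H2-Ab1 stood at 614 and 484 in WT and 467 and 500 in Dido1∆E16, so the genotypes overlapped (-0.17 ± 0.16).

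Coverage of single exons was compared for the chains. An exon of a transcript listed at 0 in a library also reads 0 there, as did the first exon of H2-Eb1 in WT replicate 1 and Dido1∆E16 replicate 2. For H2-Eb1, 4 of 5 exons with a scaled coverage of at least 10 were lower in both Dido1∆E16 libraries, and the ratio of the genotype means ran from 0.499 in the last exon to 0.742. Of 5 such exons of H2-Aa, 4 were lower without overlap, at ratios of 0.639 to 0.822, and the remaining exon overlapped at 0.899. For H2-Ab1 the ratios were 0.762 to 1.03, and only 1 of 5 exons, the last, was lower without overlap. A lower ratio in the last exon than in the others was not particular to the chains. It was also found in H2-Ob (0.868), Ciita (0.817), H2-Oa (1.35) and H2-DMb2 (1.00).

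The loading genes had more RNA in both Dido1∆E16 libraries than in either WT library, although H2-DMb1 overlapped with median-centring. H2-DMa, the α chain of H2-DM, stood at 75.8 and 75.7 TPM in WT and at 102 and 120 TPM in Dido1∆E16. The WT libraries were almost equal, and the difference was 0.54 ± 0.14 (limma, adjusted p = 0.329). All 5 of its exons with a scaled coverage of at least 10 were higher without overlap, at ratios of 1.33 to 2.13.

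H2-DMb1 and H2-DMb2 encode β chains of H2-DM. H2-DMb2 stood at 125 and 135 TPM in WT and at 177 and 187 TPM in Dido1∆E16 (0.48 ± 0.12; limma, adjusted p = 0.315). H2-DMb1 stood at 56.0 and 65.4 TPM in WT and at 83.8 and 70.3 TPM in Dido1∆E16, a difference of 0.34 ± 0.17 (limma, adjusted p = 0.563). The 2 genes cannot be separated firmly. Their exons 2 to 5 share 691 of 720 bases (96.0%), exon 4 is identical over 117 bases, and the main H2-DMb2 transcript, uc008cbp.1, ends in the last exon of H2-DMb1.

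The loading inhibitors differed in their gene sums and less so by exon. H2-Oa, the α chain of H2-O, stood at 101 and 131 TPM in WT and at 171 and 199 TPM in Dido1∆E16. The difference was 0.67 ± 0.18 (limma, adjusted p = 0.335), and all 4 of its exons with a scaled coverage of at least 10 were higher without overlap. H2-Ob, the β chain, stood at 200 and 205 TPM in WT and at 199 and 202 TPM in Dido1∆E16. Its genotypes overlapped, with a difference of -0.01 ± 0.11. From exonic coverage H2-Ob stood at 200 and 205 in WT, against 199 and 196 in Dido1∆E16, which no longer overlapped but differed by -0.04. By exon, 4 of 7 were higher without overlap in Dido1∆E16, among them the third to the fifth at ratios of 1.20, 1.19 and 1.30, and the long last exon was lower without overlap.

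The division of the H2-Ob sum among its transcripts changed between libraries, while the sum stayed within 199 to 205 TPM. The transcript uc012apw.1 held 100%, 94.7% and 94.0% of the sum in WT replicate 1, WT replicate 2 and Dido1∆E16 replicate 1. In Dido1∆E16 replicate 2 it held 6.50%, and uc008cca.1, which starts upstream of it just after the window printed above, held 93.5%. By these shares the replicates of Dido1∆E16 stood at opposite ends, and by exon they did not. The first exon of uc008cca.1 had a scaled coverage of 135 in WT replicate 2 and of 125 and 132 in Dido1∆E16. It read 0 in WT replicate 1, where that transcript was listed at 0. The first exon of uc012apw.1 had only 8.73 and 4.69 in WT and 16.3 and 12.6 in Dido1∆E16. The shares therefore do not show which transcript was used. At H2-Eb1, uc008cch.1 held all of the sum in WT replicate 2 and Dido1∆E16 replicate 1, and uc008cci.1 all of it in the other libraries. Of 28 transcripts of the 10 genes, 17 had a mean of at least 1 TPM, 11 were at 0 in all libraries, and 0 of the 17 were called, beside 0.153% of 16372 transcripts (0.0916% higher and 0.0611% lower).

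Cd74, the invariant chain, stood at 2687 and 2665 TPM in WT and at 3724 and 4389 TPM in Dido1∆E16. The WT libraries differed little, and the Dido1∆E16 mean was 1.52 times theirs, a difference of 0.60 ± 0.15 on the log2 scale (limma, adjusted p = 0.325). All 9 of its exons with a scaled coverage of at least 10 were higher without overlap, at ratios of 1.36 to 1.67.

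Ciita stood at 24.3 and 13.97 TPM in WT and at 20.004 and 21.4 TPM in Dido1∆E16. Both Dido1∆E16 libraries lay between the WT libraries, and the difference was 0.16 ± 0.31 (limma, adjusted p = 0.890). Ciita has alternative first exons. The transcripts listed above 0, uc007ydr.2 and uc007ydq.1, both begin at the most upstream exon, but the scaled coverage of that exon was 0 in both WT libraries, 0.560 in Dido1∆E16 replicate 1 and 2.59 in Dido1∆E16 replicate 2. The first exon that all libraries covered, at chr16:10501767-10501913, had a scaled coverage of 21.3 and 9.97 in WT, against 22.8 and 27.9 in Dido1∆E16. The listed transcripts therefore do not show which first exon was used, and 5 further Ciita transcripts were listed at 0.

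Across the 10 genes, 0 met both criteria of a call, which were an adjusted p below 0.05 and a log2 fold change of 0.6 or more in either direction. Among all 12324 genes tested the limma fit called 6, or 0.0487%, of which 0.0243% were higher and 0.0243% lower in Dido1∆E16. At an unadjusted p under 0.05 there were 6 of the 10 (H2-Ab1, H2-Eb1, H2-DMa, H2-DMb2, H2-Oa and Cd74), beside 11.4% of all genes. Both Dido1∆E16 libraries exceeded both WT libraries for 5 genes, and 26.7% of all genes did so. Both lay below for 3 genes, the chains, and 15.8% of all genes did so. Median-centring left 4 higher genes, without H2-DMb1. With exonic coverage the lower genes were H2-Aa, H2-Eb1 and H2-Ob, and with the largest single transcript H2-Aa and H2-Ob. The median log2 fold change of the 10 genes was 0.25, and that of all genes tested 0.07. The exact permutation test of a single gene cannot go below p = 0.33 in this design.

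**Figure D2:**
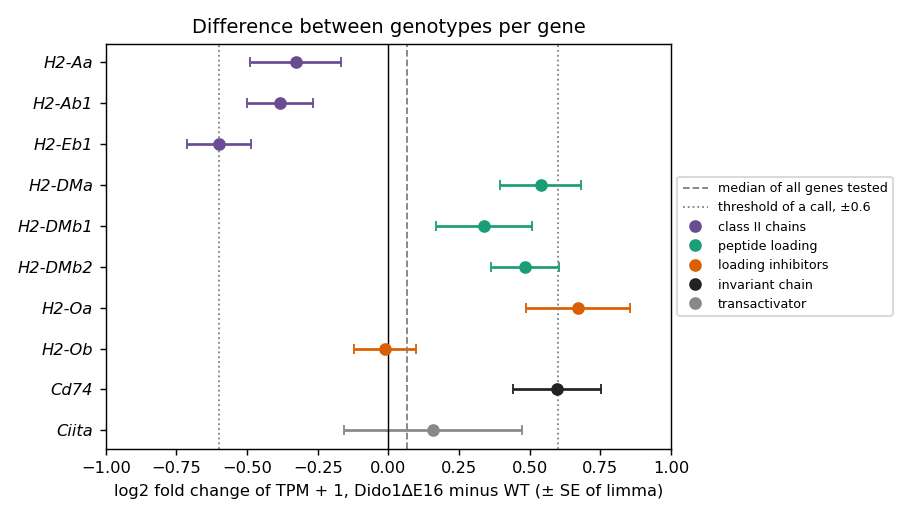
Log2 fold change of TPM + 1 (Dido1∆E16 minus WT) with the standard error of limma for the 10 genes, coloured by role; dotted lines mark the threshold of 0.6 and the dashed line the median of all genes. The chains lie left of 0, from -0.60 to -0.33, the loading genes and Cd74 right of it, from 0.34 to 0.60, and no gene passed the test.

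Ratios within a library do not depend on scaling between libraries, and 8 of them, chosen after the values were seen, were formed from TPM. The summed TPM of H2-Aa, H2-Ab1 and H2-Eb1 over that of Cd74 was 0.639 and 0.597 in WT and 0.323 and 0.303 in Dido1∆E16. The WT mean was 1.97 times the Dido1∆E16 mean, a gap far wider than the spread of either pair (exact two-sided permutation test, p = 0.33, the smallest this design allows). From exonic coverage the same ratio was 0.630 and 0.535 in WT and 0.322 and 0.300 in Dido1∆E16. H2-Eb1 over Cd74 showed the widest gap of the 8, at 0.0848 and 0.0804 in WT against 0.0390 and 0.0332 in Dido1∆E16.

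H2-Aa over Cd74 was 0.326 and 0.274 in WT and 0.158 and 0.156 in Dido1∆E16, without overlap. The ratios of H2-DMa and H2-Oa to Cd74 lay closer together. H2-DMa over Cd74 was 0.0282 and 0.0284 in WT and 0.0273 and 0.0274 in Dido1∆E16, a ratio of means of 0.965, and the pairs were close but did not overlap. H2-Oa over Cd74 was 0.0377 and 0.0492 in WT and 0.0458 and 0.0453 in Dido1∆E16, so the genotypes overlapped. Between the inhibitors, H2-Oa over H2-Ob was 0.507 and 0.639 in WT and 0.856 and 0.981 in Dido1∆E16. A ratio shows unequal levels and not which of its genes differs.

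**Figure D3:**
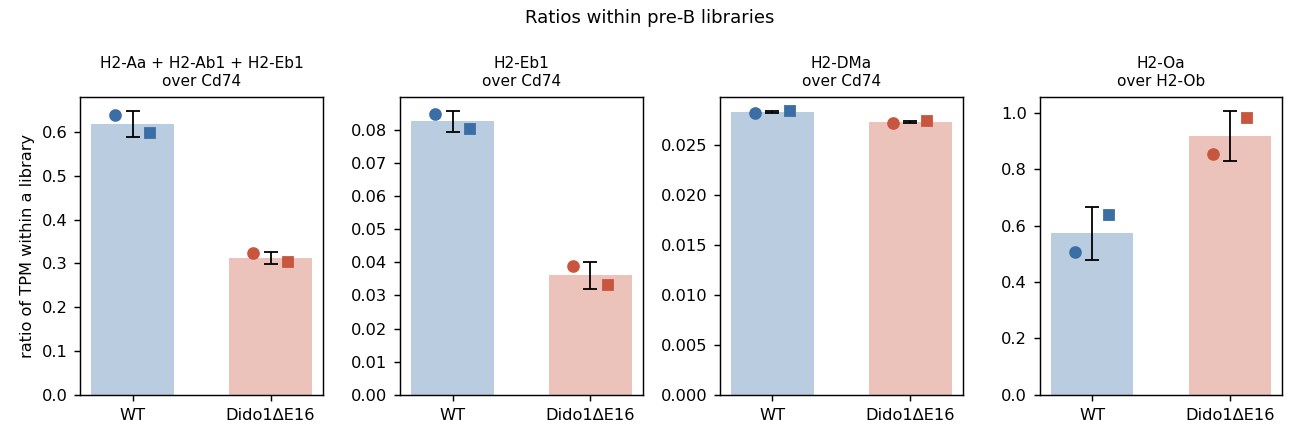
Ratios of TPM within each pre-B library for 4 gene pairs or sums; bars are means of 2 libraries, error bars the SD, and circles and squares replicates 1 and 2. The chains over Cd74 lie near 0.6 in WT and 0.3 in Dido1∆E16, while H2-DMa over Cd74 differs by a factor of 0.965.

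Factors that assemble on the X and Y boxes were next examined, in a list of 8 genes, of which 0 were called. RFX, NF-Y and CREB family members are ubiquitous. Nfyc, an NF-Y subunit, stood at 76.1 and 69.9 TPM in WT and at 57.1 and 52.7 TPM in Dido1∆E16 (-0.40 ± 0.14; limma, adjusted p = 0.400). Rfxank, an RFX subunit, stood at 52.4 and 58.4 TPM in WT and at 49.0 and 47.0 TPM in Dido1∆E16. In the other direction, Rfx5 stood at 49.4 and 48.5 against 58.7 and 52.0 TPM, and Nfya overlapped between genotypes with a difference of 0.07. The median of the list was -0.10.

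Of 10 regulators of Ciita, 9 were tested and 0 were called. Pax5 and Spi1, which act in the B lineage, are in this list, as are the interferon-γ receptor chains and Prdm1, a repressor of Ciita. Irf8 stood at 291 and 289 TPM in WT and at 394 and 364 TPM in Dido1∆E16 (0.38 ± 0.11; limma, adjusted p = 0.356). Ifngr1 stood at 111 and 91.8 TPM in WT and at 133 and 145 TPM in Dido1∆E16. Irf4 lay the other way, at 478 and 628 against 442 and 369 TPM (-0.44 ± 0.19), and Prdm1 stayed between 2.91 and 7.10 TPM and overlapped. The median of the list was 0.26.

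Endosomal processing and trafficking held the widest difference of the pathway lists among genes above 10 TPM. Ifi30, the thiol reductase that unfolds antigens in endosomes, stood at 429 and 575 TPM in WT and at 137 and 145 TPM in Dido1∆E16. Both Dido1∆E16 libraries lay far below both WT libraries, at -1.81 ± 0.18 on the log2 scale, and the gene still missed the threshold (limma, adjusted p = 0.151). Ctss, which encodes cathepsin S, the protease that trims the invariant chain in B cells, stood at 250 and 335 TPM in WT and at 359 and 429 TPM in Dido1∆E16. Ctsl, the related cathepsin L, stood at 6.95 and 10.8 against 5.44 and 5.54 TPM. March8, a ubiquitin ligase, was listed at 0 in both WT libraries and at 3.68 and 5.29 TPM in Dido1∆E16. Of 14 genes in the list 12 were tested, 0 were called, and the median was 0.06. Without overlap, 4 were higher and 4 lower, beside 26.7% and 15.8% of all genes.

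Among 4 co-stimulation genes, 0 were called. Cd40, the receptor for T cell help, stood at 53.7 and 96.1 TPM in WT and at 144 and 117 TPM in Dido1∆E16 (0.85 ± 0.32; limma, adjusted p = 0.453). Without WT replicate 1 this difference was 0.43. Cd80, a ligand of CD28, was at most 0.296 TPM in WT and stood at 2.62 and 1.46 TPM in Dido1∆E16. Icosl, the ligand of ICOS, lay lower, at 16.7 and 16.1 against 5.12 and 5.13 TPM (-1.51 ± 0.23; limma, adjusted p = 0.193).

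Class I presentation was listed for comparison, since it serves CD8 T cells through another route. All 13 genes had both Dido1∆E16 libraries above both WT libraries, as had 26.7% of all genes, 0 were called, and the median log2 fold change was 0.35. Nlrc5, the class I counterpart of Ciita, stood at 21.9 and 16.6 TPM in WT and at 38.8 and 25.3 TPM in Dido1∆E16 (0.69 ± 0.29; limma, adjusted p = 0.495). Erap1, which trims class I peptides, stood at 60.8 and 49.5 against 71.9 and 88.6 TPM. The class II chains, with a median of -0.38, lay on the other side of 0 from this list, and the difference between the lists was not tested.

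The mean centred profile of H2-Aa, H2-Ab1, H2-Eb1 and Cd74 over the 4 libraries was nearest, by Euclidean distance on the log2 scale, to those of Tpm3, Tmod3, Psd4, Gdi2 and Surf4, among 8828 genes with a mean of at least 10 TPM. The distances were 0.0237 to 0.0309. Since Cd74 and the chains lie on opposite sides, their mean profile was shallow, and Tpm3, a tropomyosin, stood at 473 and 453 TPM in WT and at 396 and 427 TPM in Dido1∆E16.

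Markers of other cells were compared because bulk RNA cannot tell fewer cells of a type from less RNA per cell. Markers of pro-B and large pre-B cells summed to 754 and 412 TPM in WT and to 2813 and 1743 TPM in Dido1∆E16. Of 7 tested, 6 were higher without overlap, beside 26.7% of all genes, and 0 were called. The surrogate light chain gene Vpreb1 stood at 108 and 40.9 TPM in WT and at 1222 and 738 TPM in Dido1∆E16, and Vpreb2 at 27.1 and 8.76 against 382 and 168 TPM. Small pre-B markers summed to 2798 and 3179 TPM in WT and 2785 and 2893 TPM in Dido1∆E16, and mature B markers, which include H2-Ob, to 1816 and 2158 against 1931 and 2095 TPM. Within the mature B list, Fcer2a, the low-affinity IgE receptor, stood at 65.6 and 63.6 TPM in WT and at 29.1 and 46.7 TPM in Dido1∆E16 (-0.79 ± 0.27; limma, adjusted p = 0.393).

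Professional presenting cells express class II strongly. Of 11 dendritic cell markers, 6, including Itgax, Zbtb46 and Clec9a, were at 0 in all 4 libraries, and the list summed to 44.2 and 80.0 TPM in WT and 82.8 and 73.8 TPM in Dido1∆E16, nearly all of it Bst2. Monocyte and macrophage markers summed to 54.7 and 232 TPM in WT and to 169 and 1356 TPM in Dido1∆E16. Neutrophil markers summed to 222 and 2094 against 998 and 8867 TPM, erythroid markers to 340 and 951 against 755 and 8746 TPM, T and NK markers to 6.92 and 4.83 against 8.79 and 26.0 TPM, and plasma and switched B markers to 249 and 280 against 290 and 272 TPM. Within the last list, Ighg2b, the constant region of switched IgG2b, stood at 4.83 and 0 TPM in WT and at 66.7 and 47.1 TPM in Dido1∆E16 (limma, adjusted p = 0.242). Sdc1, a plasma cell marker, lay the other way, at 121 and 102 against 64.4 and 57.0 TPM (limma, adjusted p = 0.227). Dido1∆E16 replicate 2 thus held the most myeloid and erythroid RNA, and within each genotype replicate 2 held more of it than replicate 1. Without that library the differences were -0.60 for H2-Eb1, -0.44 for H2-Aa, 0.42 for H2-DMa, 0.56 for H2-Oa and 0.48 for Cd74. The part of the pro-B markers and of Ighg2b in the class II values was not tested.

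**Figure D4:**
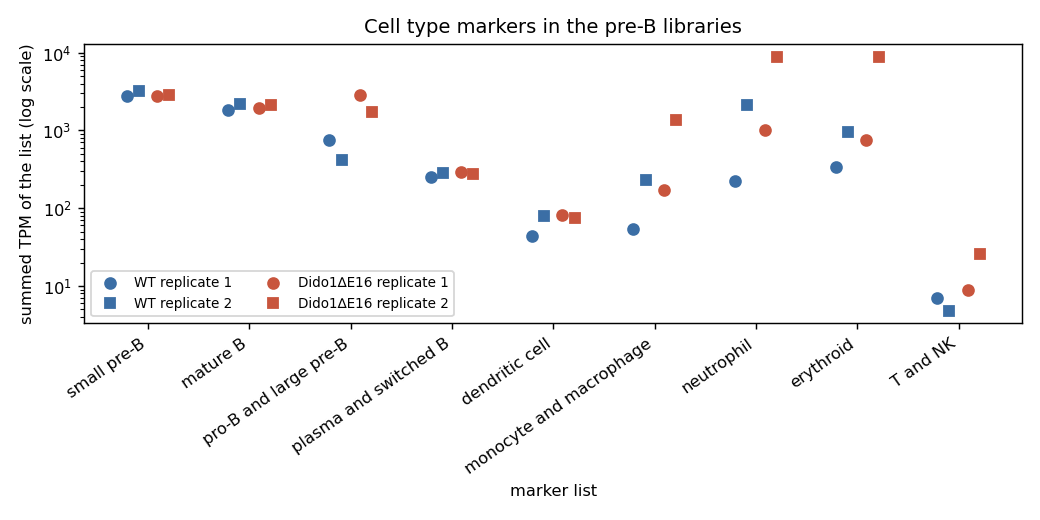
Summed TPM (log scale) of 9 marker lists in the 4 pre-B libraries; circles and squares are replicates 1 and 2. The sums of the small pre-B and mature B lists overlap between genotypes, the pro-B and large pre-B list is higher in Dido1∆E16, and myeloid and erythroid lists are highest in Dido1∆E16 replicate 2.

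In LSK cells, MACS2 peaks assigned by the authors' symbol to the 10 genes numbered 6 in WT replicate 1, 20 in WT replicate 2 and 6 and 4 in Dido1∆E16. The libraries held 27352, 57739, 13208 and 16329 peaks in all, so the genes took 0.219, 0.346, 0.454 and 0.245 of every 1000 peaks. WT replicate 2 had by far the most peaks, and the share of the 10 genes did not order the genotypes. H2-DMb2 and H2-Oa had no peak in any library.

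Cd74 had 2 and 4 peaks in WT and 1 and 0 in Dido1∆E16, and no other of the 10 genes had fewer in both Dido1∆E16 libraries. Of 17770 genes with a peak, 35.6% did so. For Cd74 the smallest possible p, 0.33, was reached (exact permutation test, two-sided). Counting only the 13208 peaks with the best scores in each library gave Cd74 1, 1, 1 and 0 peaks, and the HOMER peak caller gave it 3, 2, 3 and 5. Without WT replicate 1, 6 of the 10 genes had fewer peaks in both Dido1∆E16 libraries, and without Dido1∆E16 replicate 1, 2 did. The share of all genes was not counted for these subsets, so the counts cannot be read as particular to the class II genes. Without WT replicate 1, a WT library of 57739 peaks is set against 13208 and 16329 in Dido1∆E16. Ciita had 6 peaks in WT replicate 2 and 0 in the other 3 libraries, WT replicate 1 included.

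Peaks near the genes fell into 26 regions after overlapping peaks were joined. WT replicate 2 had a peak in 24 of them, WT replicate 1 in 8 and Dido1∆E16 replicates 1 and 2 in 9 and 6. A peak in WT replicate 2 alone marked 11 regions, and all 4 libraries shared 2. One of these lies in H2-DMa at chr17:34135228-34136099, labelled 5′ UTR, with MACS2 scores of 39 and 107 in WT, against 30 and 40 in Dido1∆E16. The other, at chr17:34118896-34119709, is annotated to the neighbouring gene Brd2.

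At the starts of the genes, the libraries of a genotype often differed. The Cd74 start at chr18:60803559-60804070 was a peak in both WT libraries and Dido1∆E16 replicate 1, with scores of 40, 99 and 59. The H2-Aa start at chr17:34287720-34288038, which holds the printed H2-Aa window, was a peak in the same libraries, with scores of 43, 39 and 27. In WT replicate 1 and Dido1∆E16 replicate 1 that peak is annotated to H2-Eb1, through a transcript that reads from H2-Ab1 into H2-Eb1. The H2-Ab1 start at chr17:34263020-34263456 was a peak in WT replicate 2 and both Dido1∆E16 libraries, with scores of 34, 15 and 23. The H2-Eb1 start at chr17:34305677-34305970 and a Ciita start at chr16:10487929-10488255 were peaks in WT replicate 2 only. That Ciita start belongs to uc007ydu.3, which was listed at 0 in all pre-B libraries. The more upstream start of the Ciita transcripts listed above 0 was no MACS2 peak in any library. The H2-DMb1 start at chr17:34153143-34153450 was a peak in Dido1∆E16 replicate 2 only. The H2-DMa start at chr17:34122277-34122865 was a peak in WT replicate 2 and Dido1∆E16 replicate 1, with scores of 20 and 23. The authors' annotation gives it to the Brd2 promoter, and the first H2-DMa exon with coverage in pre-B cells lies at chr17:34135182-34135758, overlapping the region shared by all 4 LSK libraries. Of these starts of UCSC transcripts, none was a peak in both libraries of one genotype and in neither of the other. Away from them, 2 regions were peaks in both WT libraries and in neither Dido1∆E16 library. These were chr17:34257640-34258023, with scores of 21 and 49, which lies upstream of the H2-Ab1 transcripts quantified but holds the start of the GENCODE gene (chr17:34257689-34269419), and chr17:34293526-34293942, upstream of H2-Aa, with scores of 19 and 35. HOMER called them in 4 and 3 libraries.

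**Figure D5:**
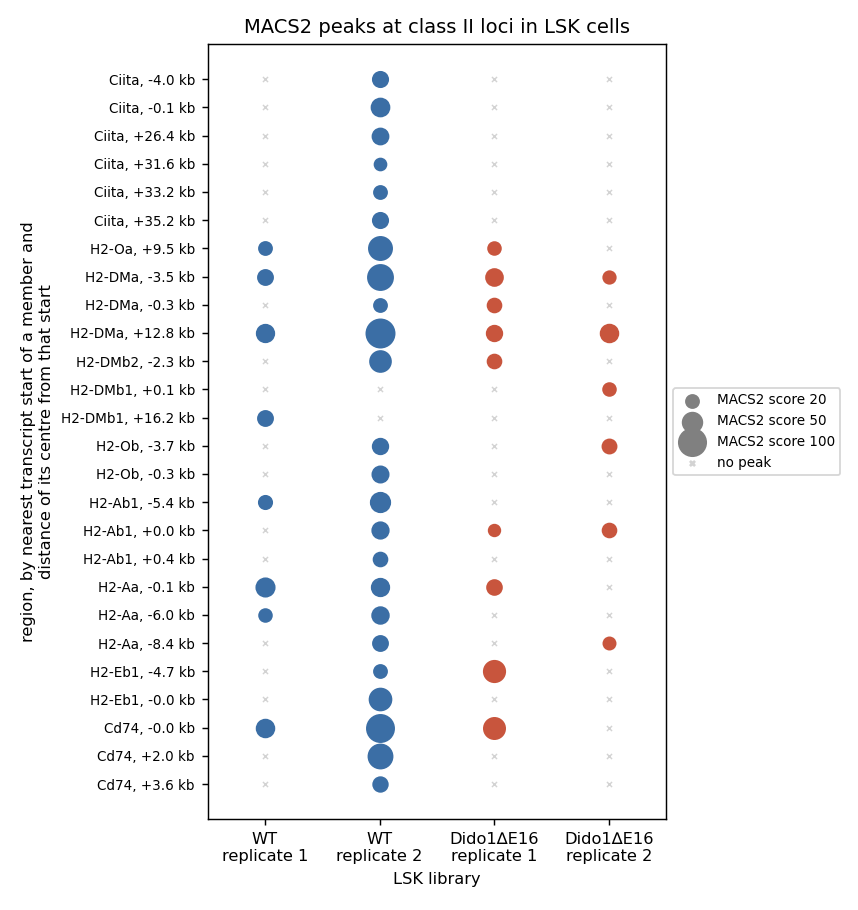
MACS2 peaks in 26 regions within 10 kb of the 10 genes, one row a region with the distance of its centre from a start of the named gene; columns are the 4 LSK libraries, circle area grows with the score and crosses mark no peak. WT replicate 2 has peaks in 24 regions, and the other libraries in 6 to 9.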

How the data were processed

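Per the labels and the study's methods, the authors aligned pre-B reads with BWA 0.7.15 to mm10 and quantified UCSC known transcripts with StringTie, and the deposited values used were TPM, FPKM and coverage. For LSK cells the authors ran MACS2 and HOMER on each library and annotated the peaks with ChIPseeker. The deposited MACS2 score is a whole number whose scale is not given in the sources used here, and the deposited HOMER score is 1 for every peak. The authors' tables of differential peaks and of edgeR results hold their own comparisons and were not used, except for a column of gene names.

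Transcripts were named from the peak annotation, the gene column and, for 25890 of 63753, a GENCODE M21 gene that held at least 50% of their exonic bases on the same strand. TPM were summed per gene. Genes with a mean of at least 1 TPM were tested on log2(TPM + 1) with limma 3.58.1 (R 4.3.3; trended empirical Bayes, all 4 libraries, Benjamini-Hochberg adjustment over all genes). A fold change on this scale understates the change of low genes. Calls were made at an adjusted p below 0.05 with a log2 fold change of 0.6 or more in either direction. Scaled coverage is StringTie's coverage multiplied by the library's ratio of TPM to coverage. The test was checked on simulated data. Files were read with Python 3.11.15 (pandas 2.3.3) and plotted with matplotlib 3.10.9.

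All 10 genes were named, and in the other lists the called genes and the 2 with the largest log2 fold change in each direction. Other genes named beside these, among them the list members given as examples and single markers, were chosen after their values were seen. The members and lists were chosen with earlier results of these data known. Marker lists that hold a withheld gene are not reported here. Alternatives changed the pseudocount, filter, scaling, unit, trend, replicate block, libraries, transcript choice, peak caller and peak set.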

Additional observations from a re-analysis of the deposited data

How the results depend on the processing

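None of the 10 class II genes was called under any of 14 alternatives of the gene sums, and 137 of 140 recomputed values kept their direction and call. The exceptions were H2-Ab1 from its largest single transcript (0.084) and, without WT replicate 2, H2-Ob (0.0051) and Ciita (-0.22). From its largest single transcript H2-Ob kept its direction but moved from -0.012 to -1.94. An uncalled gene cannot lose its call, and several alternatives below called 0 genes in all. On leaving out each library H2-Ob ran from -0.030 to 0.0051 and Ciita from -0.22 to 0.54. Of other named genes, Nfya turned with median-centring (-0.012) and, without WT replicate 2, so did Nfya (range over libraries -0.063 to 0.20) and Prdm1 (-0.84 to 0.0041). Single libraries moved other values by over 1.5 times. Without WT replicate 1 they were -0.20 for H2-Aa, -0.16 for H2-Eb2, 0.23 for Ctss and 0.43 for Cd40. Without WT replicate 2 they were -0.55 for H2-Eb2, -0.12 for Rfxank, -0.24 for Irf4 and -0.29 for Ctsl. Without Dido1∆E16 replicate 1 they were -0.22 for H2-Aa, 0.21 for H2-DMb1, 0.085 for Rfx5 and 0.39 for Nlrc5, and without Dido1∆E16 replicate 2 Rfx5 was 0.26. Among all genes, the 6 calls became 0 with a pseudocount of 0.1, 0 without a filter on low values, 52 without a trend, 11 from the largest single transcript and 3 from exonic coverage, an alternative chosen after seeing the data. Leaving out each library gave 0 to 0 calls. At an unadjusted p under 0.05 these fits held between 836 and 2618 genes. Among all transcripts, the 25 calls became 4 with the smaller pseudocount, 3 without a filter and 97 without a trend. They numbered 0 to 532 on leaving out a library, 480 without Dido1∆E16 replicate 1 and 532 without Dido1∆E16 replicate 2. Transcripts of the 10 genes called then numbered 0 to 1. In these fits the lone library is assumed to vary like the others, and 1 residual degree of freedom remains. The causes were not tested. The number of class II genes with fewer LSK peaks in both Dido1∆E16 libraries, 1, became 0 with HOMER peaks, 0 with the same number of best-scoring peaks, 0 with the better-scoring 50% of the peaks and 0 with peaks within 1 kb of a start, the last chosen after seeing the data. It ranged from 1 to 6 on leaving out a library, where the share of all genes was not counted.

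With the replicate number as a block, 0 genes and 0 transcripts were called in all, and the LSK count was 1. The labels join replicates of the genotypes only by number, and deviations of same-numbered libraries from their genotype means correlated at 0.045. Coverage followed the number, with 1581 and 1635 megabases on transcripts in replicate 1 of WT and Dido1∆E16 against 1121 and 1173 in replicate 2. Neutrophil, monocyte and erythroid marker sums were also higher in replicate 2 of both genotypes. Read depth is not given, and 2 libraries a genotype limit the precision of every value.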
